A study of Homo sapiens with 16 samples.

Results

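The DNA replication and S-phase genes were 39 genes listed by name as the E2F-driven S-phase arm of proliferation. The rule itself used no measured value, but the list was chosen with earlier results of these data known. All 39 were found among the 26475 entries of the count table, and all 39 passed the filter on low counts in each comparison. The lowest count of any of them in a library was 169 (*POLE2*) and the highest was 22011 (*MCM7*). By role they comprised 6 subunits of the MCM helicase, 6 factors that activate the helicase, 4 origin licensing factors, 5 subunits of the sliding clamp and its loader, 2 subunits of the single-strand binding protein RPA, 5 polymerase and primase subunits, 2 enzymes that finish lagging strand fragments, 5 enzymes of nucleotide supply and 4 regulators of S phase.

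A cell that is about to copy its DNA first marks each origin with the origin recognition complex, CDC6 and CDT1, which load the MCM2-7 helicase. CDC45 and the GINS complex then switch the helicase on, primase starts each strand, and the clamp PCNA holds the polymerases to the template. Most of these genes are transcribed when E2F factors are released from RB late in G1, so their summed RNA is commonly read as a sign of how many cells are in or near S phase. In bulk RNA, fewer cells in S phase and less RNA per cell cannot be told apart.

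Expression was measured by RNA-seq in MCF10A, an immortalized, non-tumorigenic line of human breast epithelial cells that is diploid according to its labels. The 16 libraries formed 4 groups of 4. Control cells received vehicle (DMSO) and no collagen, and a second group received vehicle and collagen at 0.05 mg/mL for 24 h. In the remaining groups the same collagen was joined either by 2 μM DDR1-IN-1 (DDR1i), which inhibits the collagen receptor kinase DDR1, or by 5 μM AI-10-104 (RUNXi), which keeps RUNX proteins from binding CBFβ. Each inhibitor was present for 48 h in all, including the 24 h with collagen. The medium with collagen also held NaOH for polymerization, so that the effects of collagen and of that medium cannot be told apart. All groups come from 1 cell line, and nothing in the labels says that replicates came from separate cultures, so p-values measure the spread between these libraries, which may be technical.

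Total counts ranged from 12184619 to 44332378 per library. Levels are given as normalized CPM, counts scaled to library size with TMM factors across the 16 libraries. Collagen replicate 3, which the study removed as an outlier, was left out of the tests and of collagen means, and its values are given as those of the removed library. Among 8 markers listed for basal mammary epithelium, the line's own class, *KRT5* was highest in all libraries (6971 to 11592 CPM). The sum of the 8 ranged from 11499 to 21427 CPM. Others were far lower, with *CDH1* at 61.6 to 117, *TP63* at 47.3 to 75.5 and *EPCAM* at 20.2 to 48.2 CPM. Of these, the study uses the protein of *CDH1* (E-cadherin) as an epithelial marker and that of *EPCAM* as a luminal one, so neither is particular to basal cells. *KRT14* was 1594 to 2247 CPM with DDR1i and 3270 to 4757 CPM in the other groups. Among the markers of other cells, *PGR*, *COL3A1*, *HBB* and *CDH5* were at 0 in every library, the 7 luminal markers summed to 449 to 714 CPM, mostly from *KRT18*, and the 7 fibroblast markers summed to at most 32.9 CPM.

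The members were listed as E2F-driven genes, and their promoters show how far they share the letters of an E2F site. The stretch of 250 bases before each annotated start (RefSeq, GRCh38.p14) was searched on both strands for TTTGGCGC, TTTCCCGC, TTTCGCGC and TTTGCCGC, the form of site that E2F factors bind. Of the 33 members with a window, 14 (42.4%) held a match, against 928 of 27305 genes (3.4%). CCAAT, the motif of NF-Y, was found for 19 of the 33 (57.6%) and for 37.0% of all genes. *MCM6* had the most matches, 2 overlapping pairs, and *CDT1*, *TYMS*, *PCNA* and *E2F1* had theirs within 60 bases of the start. These 5 stretches are printed because they carry the shared motif in 5 different roles of the program, with the matches and nothing else in capitals, 5′ to 3′ on the strand of the gene. They lie at chr2:135876502-135876615 (-) for *MCM6*, chr16:88803734-88803781 (+) for *CDT1*, chr18:657594-657641 (+) for *TYMS*, chr20:5126654-5126701 (-) for *PCNA* and chr20:33686386-33686438 (-) for *E2F1*.
MCM6: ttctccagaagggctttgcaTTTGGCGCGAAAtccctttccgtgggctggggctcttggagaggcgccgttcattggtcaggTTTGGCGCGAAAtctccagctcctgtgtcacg
CDT1: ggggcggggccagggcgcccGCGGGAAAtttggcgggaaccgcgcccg
TYMS: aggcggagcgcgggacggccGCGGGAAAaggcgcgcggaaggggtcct
PCNA: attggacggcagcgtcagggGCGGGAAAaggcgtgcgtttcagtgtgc
E2F1: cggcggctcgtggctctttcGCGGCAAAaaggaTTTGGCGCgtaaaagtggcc

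A match is a description of the letters in the window and does not show that a factor is bound there. The other 9 genes with a match were *MCM3*, *MCM7*, *POLA1*, *POLA2*, *RFC3*, *DUT*, *GINS2*, *UHRF1* and *LIG1*. No window was at hand for *MCM4*, *MCM5*, *GINS4*, *RPA2*, *RPA3* and *CCNE2*.

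The replication genes were expressed in every library, at levels that differed far more between genes than between groups. Per kilobase of canonical transcript, *MCM7* was highest at 194 ± 19.4 CPM per kb (SD, n = 16 libraries), followed by *PCNA* at 187 ± 56.8 and by *RRM2*, the regulatory subunit of ribonucleotide reductase, at 119 ± 17.6. *MCM7* and *PCNA* differed by less than their spread, as did *RRM1* (104 ± 7.48) and *MCM3* (101 ± 7.05), which came next. The other subunits of the MCM2-7 ring were lower than *MCM7* by more than the spread, with *MCM4* at 84.8 ± 6.59, *MCM2* at 53.0 ± 4.73, *MCM6* at 48.7 ± 4.54 and *MCM5* at 44.4 ± 3.14 CPM per kb, the last 3 of which did not differ from their neighbours beyond their spread. At the bottom were *POLE2* (9.23 ± 2.07), *POLA1* (8.38 ± 1.19) and cyclin E2, *CCNE2* (8.13 ± 2.08), which did not differ beyond their spread. Levels per kb rest on the length of 1 annotated transcript per gene, and the isoforms present were not measured.

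**Figure D1:**
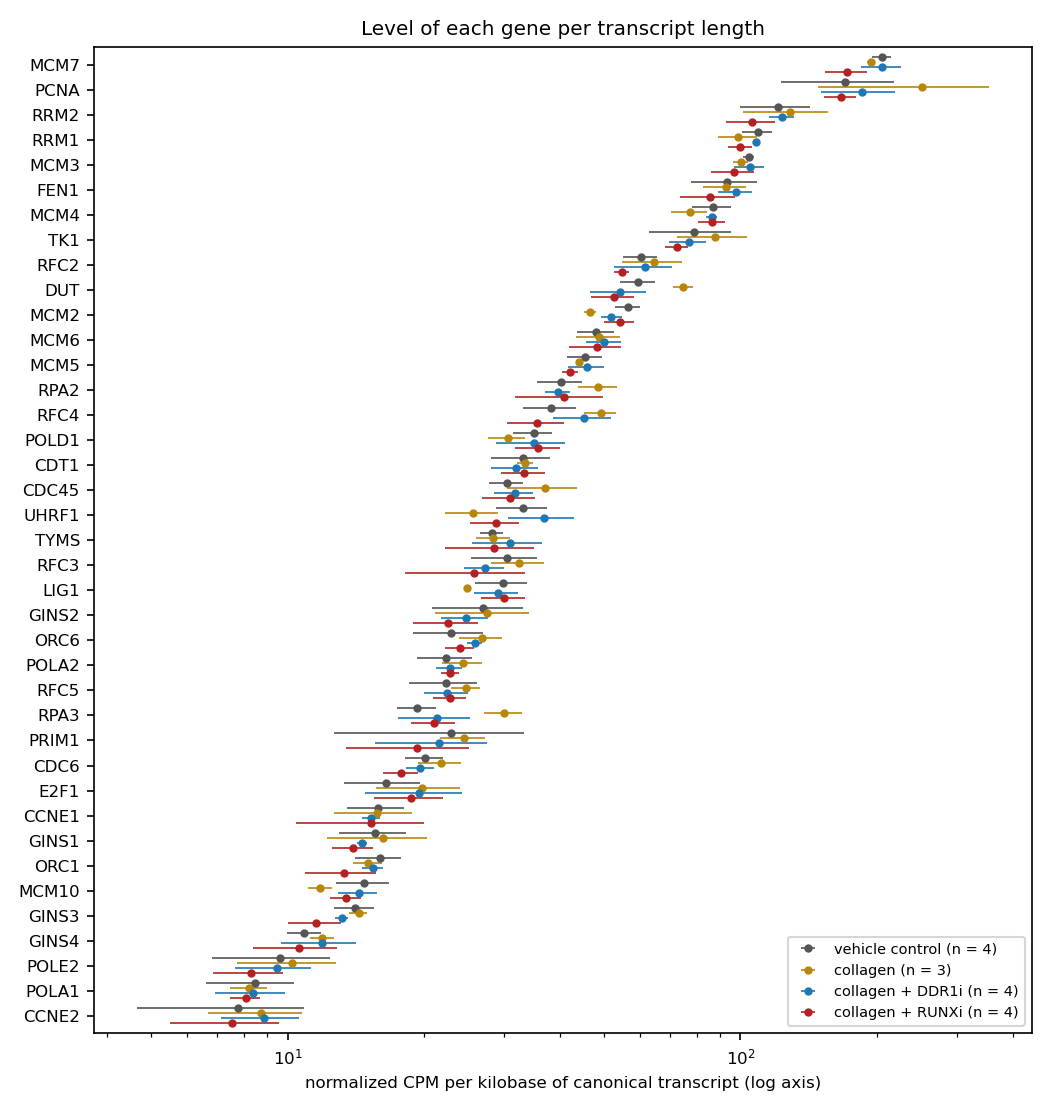
Mean level of each of the 39 genes in normalized CPM per kilobase of canonical transcript (log axis), 1 point per group with its SD (control, DDR1i and RUNXi n = 4, collagen n = 3). The points of the 4 groups lie close together for most genes, while genes differ from 194 CPM per kb (*MCM7*) to 8.13 CPM per kb (*CCNE2*).

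Between libraries these genes varied little. The coefficient of variation of CPM over the 16 libraries had a median of 13.3% for the 39 genes and of 16.6% for the 7739 tested genes in the same range of mean CPM (15.6 to 478). The highest library exceeded the lowest by 1.27 times for *MCM5*, the steadiest, and by 3.74 times for the primase subunit *PRIM1* and 3.53 times for *PCNA*, the most variable. Summed over the 39 genes, the level was 4709.7 ± 212 CPM in control (n = 4), 4785 ± 346 with collagen (n = 3), 4748 ± 219 with DDR1i (n = 4) and 4382 ± 242 with RUNXi (n = 4). The sum was therefore lowest with RUNXi, where its range of 4088 to 4655 CPM overlapped those of control (4496 to 4972), collagen (4570 to 5185) and DDR1i (4567 to 5022).

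**Figure D2:**
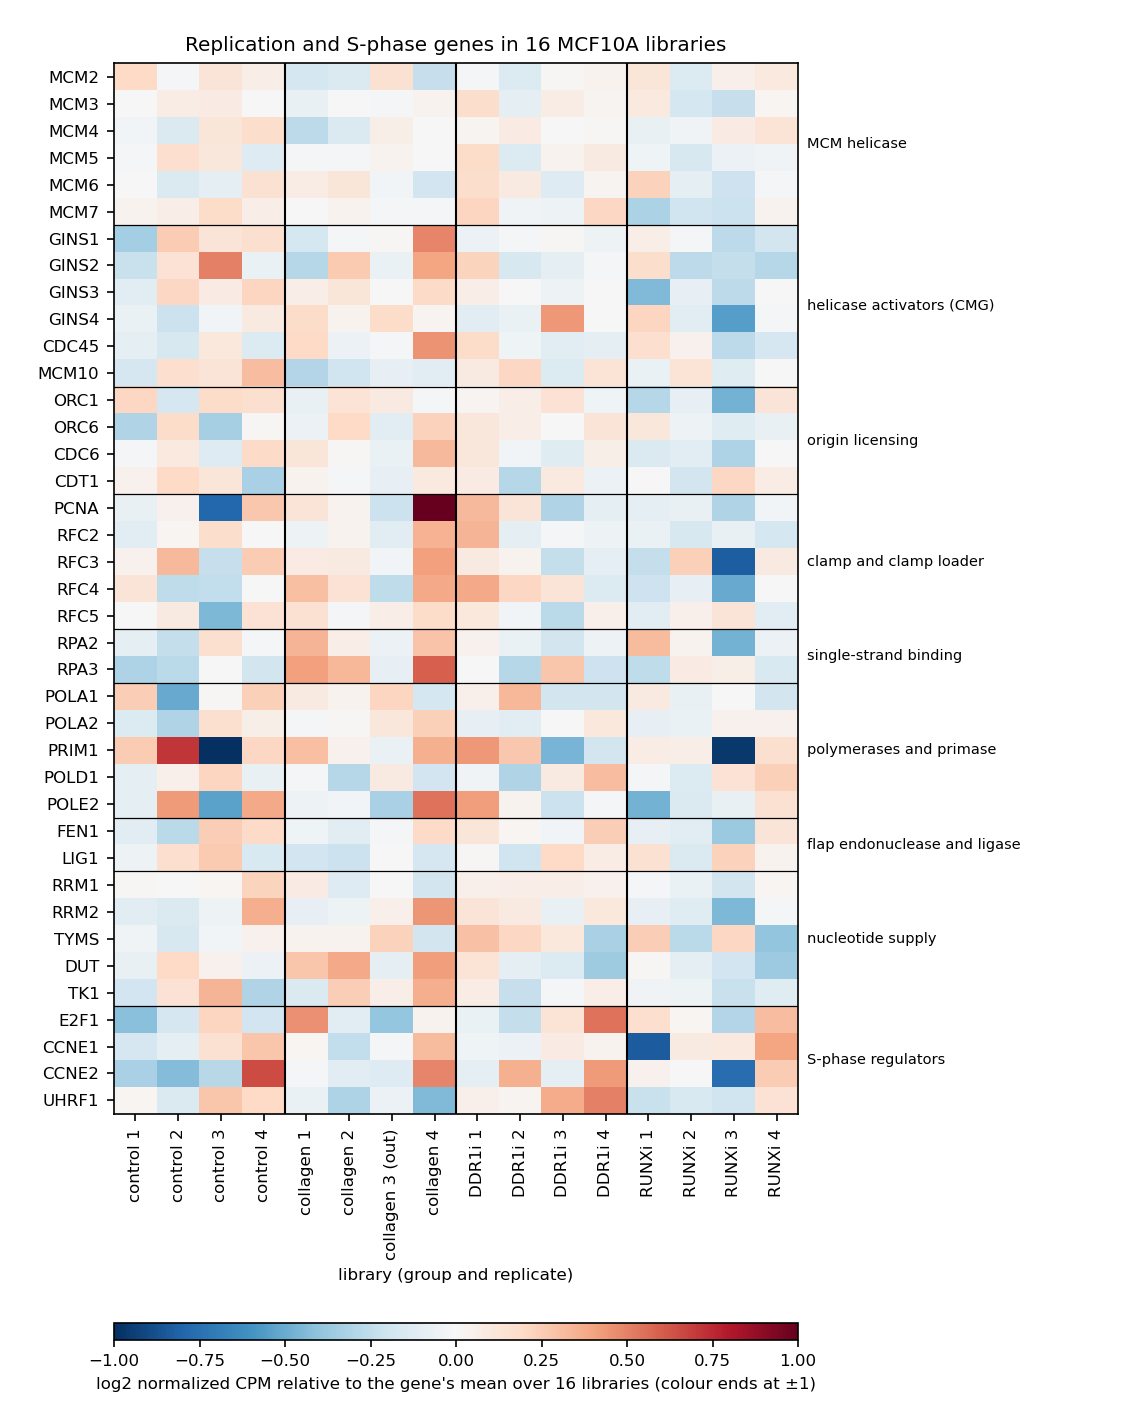
Log2 normalized CPM of each gene relative to its own mean over 16 libraries (colour scale ending at -1 and 1), with genes ordered by role and libraries by group and replicate. Most cells are pale, collagen replicate 4 holds the highest value of 14 genes and RUNXi replicate 3 the lowest of 13.

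Collagen alone was compared with control to ask whether the ligand moves the replication program. It left the program near its control level, with a median log2 fold change of 0.07 over the 39 genes (0.01 over all genes tested) and a range from -0.35 for *UHRF1* to 0.64 for *RPA3*. In the quasi-likelihood test of edgeR, adjusted over all genes by Benjamini-Hochberg (threshold 0.05), 0 of the 39 genes passed, as did 0% of all 13092 genes tested. At an unadjusted p under 0.05, 5 of the 39 passed (12.8%), 3 of them higher, against 13.4% of all genes. DESeq2 called 1 of them, *RPA3*, against 5.76% of the genes for which it gave an adjusted p, here and below the base of its shares. The libraries of both groups did not overlap for 5 of the 39 (12.8%), against 13.6% of all genes. The share of replication genes was thus near or below that of all genes under each of these rules.

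Each inhibitor was then compared with collagen alone, to ask what blocking the receptor or the RUNX complex does to the program in the presence of the ligand. With DDR1i the median log2 fold change over the 39 genes was -0.05 (0.00 over all genes), and the range ran from -0.49 for *RPA3* to 0.52 for *UHRF1*. In edgeR's test 0 of the 39 genes passed, against 2.47% of the 13548 genes tested, 4 of 39 (10.3%) passed at an unadjusted p under 0.05 against 18.0% of all genes, and DESeq2 called 3 of them against 10.0% of all genes. The groups did not overlap for 5 of the 39 (12.8%), against 15.1% of all genes. With RUNXi the median was -0.17 (0.01 over all genes), 32 of the 39 fold changes were negative, and the range ran from -0.60 for *PCNA* to 0.26 for *LIG1*. In edgeR's test 1 of the 39 genes passed, *DUT*, which fell, against 4.05% of all genes. At an unadjusted p under 0.05, 7 of 39 (17.9%) passed, all of them lower, against 21.1% of all genes in both directions together. DESeq2 called 3 of the 39 against 11.8% of all genes. By non-overlap the order was the other way. The RUNXi and collagen libraries did not overlap for 10 of the 39 (25.6%), 8 of them lower with RUNXi, against 18.3% of all genes. At the unadjusted p, 1384 of the 13548 genes tested were lower and 1469 higher. Lower values alone were thus a larger share of the 39 than of all genes, a difference that was not tested. Both comparisons, and that of collagen with control, use the same 3 collagen libraries, so that a gene that was high in those libraries appears lower with either inhibitor. With 1 library left out, the median against collagen ran from -0.12 to 0.006 with DDR1i and from -0.21 to -0.099 with RUNXi. The upper end of each was the fit without collagen replicate 4. The call of *DUT* was lost when the removed library was included (adjusted p = 0.230 in edgeR) or when collagen replicate 2, collagen replicate 4, RUNXi replicate 3 or RUNXi replicate 4 was left out (adjusted p from 0.0511 to 0.0894).

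Set against each other, the inhibitors differed in 0 of the 39 genes by edgeR's test (0.568% of all 13548 genes) and in 0 by DESeq2 (0.910% of all genes), with 3 of 39 (7.69%) at an unadjusted p under 0.05 against 6.19% of all genes. The groups did not overlap for 1 of the 39, against 4.50% of all genes. The median log2 fold change of DDR1i against RUNXi was 0.11, with 32 of the 39 values positive. A comparison with control uses no library with collagen alone. There the median was 0.01 for DDR1i, with 0 of 39 genes passing edgeR's adjusted threshold (0.212% of 13213 genes), 0 at an unadjusted p under 0.05 (5.13% of all genes) and 0 by DESeq2 (0.470% of all genes). For RUNXi against control the median was -0.10, with 0 of 39 genes passing (0.401% of all genes), 1 at an unadjusted p under 0.05, *MCM7* (6.81% of all genes), and 0 by DESeq2 (1.03% of all genes). Against control the groups overlapped for all 39 genes with either inhibitor, while 3.25% of all genes did not overlap with DDR1i and 4.27% with RUNXi.

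The intervals show how large a change these libraries would have left room for. The 95% confidence interval of the fold change lay within 2-fold in either direction for 38 of the 39 genes with collagen against control and with RUNXi against collagen, *PCNA* being the exception each time, and for all 39 in the other 4 comparisons. It lay within 1.5-fold for 26 of the 39 genes with collagen against control, 32 with DDR1i against collagen, 29 with RUNXi against collagen, 34 with DDR1i against RUNXi, 36 with DDR1i against control and 35 with RUNXi against control. Over all genes tested, between 62.7% and 71.3% had an interval within 2-fold.

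**Figure D3:**
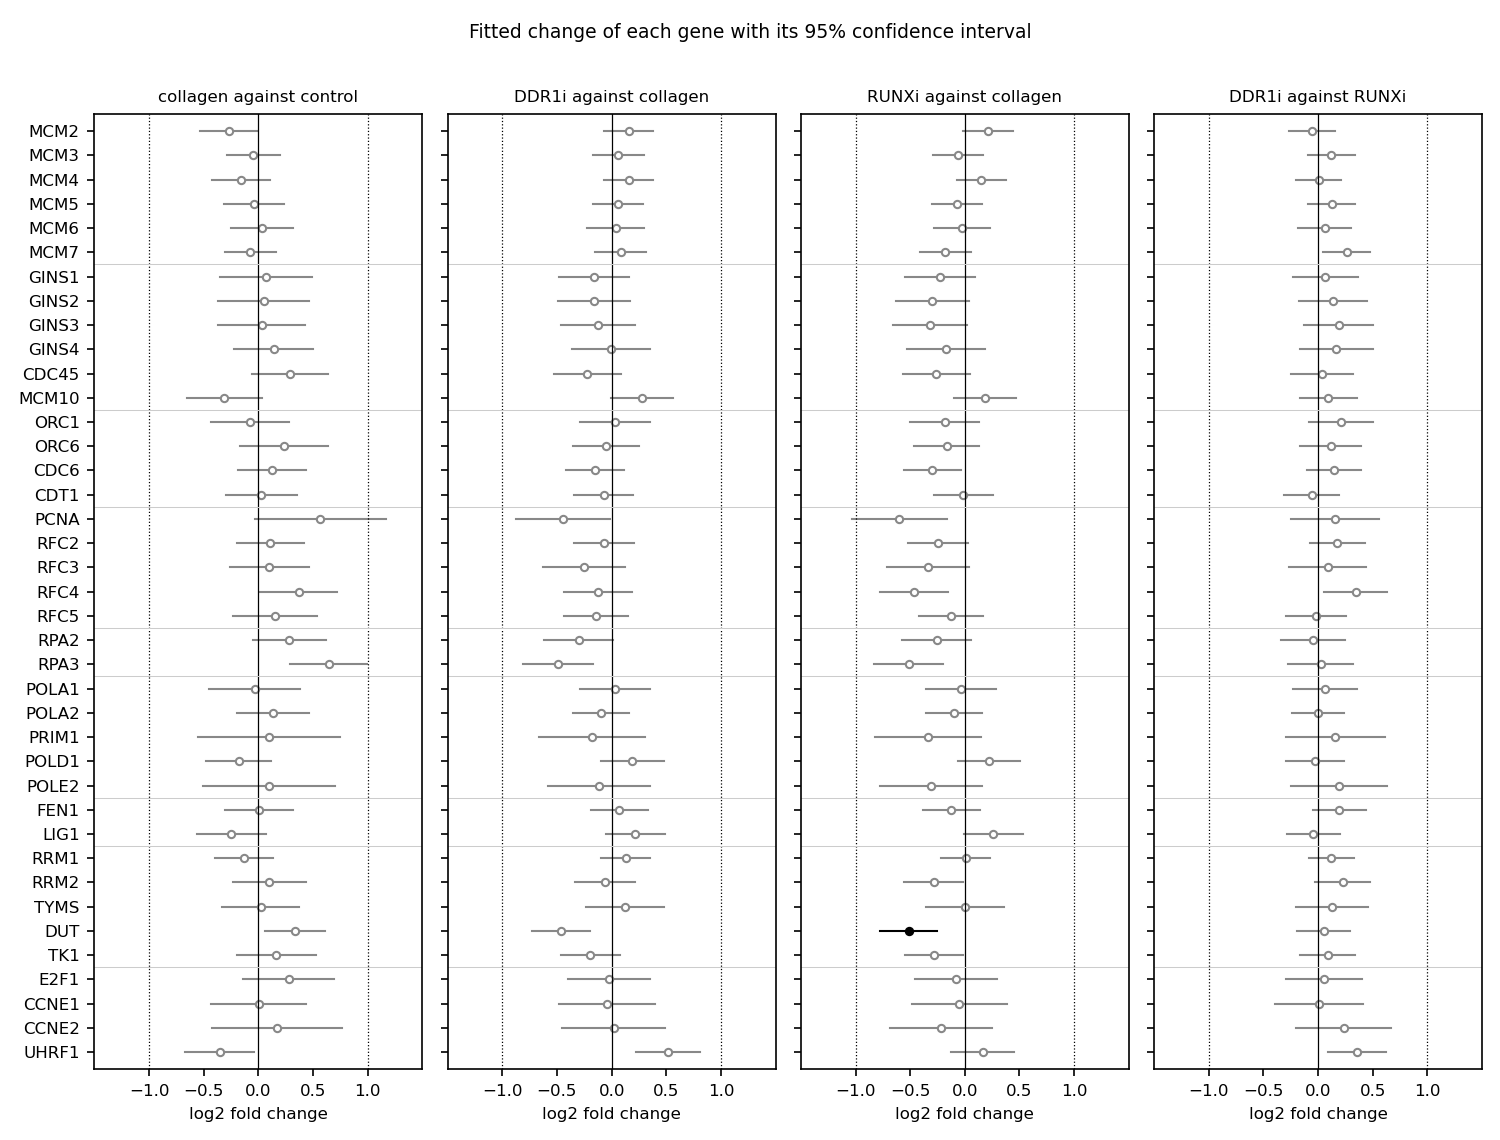
Log2 fold change of each gene with its 95% confidence interval in 4 comparisons, from the edgeR fits, with dotted lines at a 2-fold change and filled black points where the adjusted p was under 0.05. The only filled point is *DUT* with RUNXi against collagen (-0.51), and the interval of *PCNA* crosses a 2-fold line for collagen against control and for RUNXi against collagen.

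Nucleotide supply held the single call. *DUT* encodes the dUTPase that keeps uracil out of DNA. Its normalized CPM was 118, 143, 128 and 119.9 in the control libraries and 151, 162 and 167 in collagen replicates 1, 2 and 4, with 117 in the removed library. With DDR1i it was 137, 116, 113 and 97.6, and with RUNXi 126, 117, 109 and 97.1. The 3 collagen libraries therefore lay above all 8 inhibitor libraries and all 4 control libraries, and the removed library lay below all 4 controls. *DUT* fell with RUNXi against collagen (log2 fold change -0.51, SE 0.13, adjusted p = 0.0255 in edgeR). With DDR1i its value was -0.46 (SE 0.13, adjusted p = 0.0505), just short of the threshold, and with collagen against control it was 0.34 (SE 0.13, adjusted p = 0.268). Against control, neither inhibitor moved it past the threshold (-0.12, adjusted p = 0.998 for DDR1i, and -0.18, adjusted p = 0.851 for RUNXi). With the removed library included, the value for RUNXi against collagen was -0.42.

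The other enzymes of nucleotide supply did not pass a test. *RRM2* measured 357, 349, 372 and 496 CPM in control and 364, 372 and 523 with collagen, with 399 in the removed library. It measured 422, 409, 365 and 416 with DDR1i and 363, 355, 282 and 381 with RUNXi. Control replicate 4 and collagen replicate 4 stood above the other libraries of their groups, and the groups overlapped in every comparison. The log2 fold change of *RRM2* was -0.29 with RUNXi against collagen (SE 0.13, adjusted p = 0.209), -0.06 with DDR1i against collagen (adjusted p = 0.883) and 0.23 for DDR1i against RUNXi (SE 0.12, adjusted p = 0.872). *RRM1*, its catalytic partner, was 343 ± 26.7 CPM in control, 311 ± 30.8 with collagen, 340.2 ± 2.30 with DDR1i and 314 ± 18.9 with RUNXi. Thymidine kinase *TK1* was 126 ± 22.1 CPM with collagen (n = 3) and 104 ± 6.11 with RUNXi (n = 4), a log2 fold change of -0.28 (adjusted p = 0.212). Thymidylate synthase *TYMS* was 45.6 ± 2.61 CPM in control, 45.9 ± 3.96 with collagen, 50.0 ± 8.81 with DDR1i and 46.1 ± 10.2 with RUNXi, and 60.0% of its transcript bases are shared with *ENOSF1* on the opposite strand.

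RPA coats single-stranded DNA at the fork, and its subunits *RPA2* and *RPA3* had their highest group means with collagen. *RPA1*, its large subunit and outside the 39 genes, did not stand out. It was 151, 150 and 128 CPM in the tested collagen libraries and from 129 to 151 CPM in control. *RPA3* was 36.0, 36.9, 44.5 and 39.1 CPM in control and 59.0, 55.8 and 67.1 with collagen, with 42.1 in the removed library. It was 44.3, 36.4, 53.8 and 38.4 with DDR1i and 37.2, 47.0, 46.3 and 40.0 with RUNXi. The 3 collagen libraries lay above the other 12 tested libraries, while the removed library lay within the range of the control and inhibitor groups. *RPA3* had the largest value of collagen against control, a log2 fold change of 0.64 (SE 0.17, adjusted p = 0.135 in edgeR and 0.00746 in DESeq2). Against collagen it was -0.49 with DDR1i (SE 0.15, adjusted p = 0.0837) and -0.52 with RUNXi (SE 0.15, adjusted p = 0.0547), and DESeq2 gave 0.0350 and 0.0231. A stretch of 5.84% of its transcript is shared with *UMAD1* on the opposite strand. *RPA2* was 76.9 ± 7.53 CPM with collagen, 63.5 ± 7.30 in control, 62.5 ± 3.94 with DDR1i and 64.5 ± 14.1 with RUNXi, and no comparison of it passed.

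The clamp and its loader showed how much 1 library could decide. *PCNA* was 219.6, 238, 134 and 279 CPM in control, 253, 237 and 472 with collagen and 199.5 in the removed library. It was 289, 252, 188 and 215 with DDR1i and 216, 219.5, 187 and 227 with RUNXi. Collagen replicate 4 stood far above every other library, and the collagen mean of 321 ± 131 CPM (n = 3) rests on it. The log2 fold change of *PCNA* was 0.57 with collagen (SE 0.27, adjusted p = 0.407), -0.44 with DDR1i against collagen (SE 0.20, adjusted p = 0.263) and -0.60 with RUNXi against collagen (SE 0.20, adjusted p = 0.103). Without collagen replicate 4 these last values were -0.05 and -0.20.

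*RFC4*, a subunit of the loader that opens the clamp, was 68.0, 61.2 and 71.9 CPM with collagen, with 46.4 in the removed library. It was 60.4, 46.3, 46.6 and 55.2 in control, 72.0, 63.7, 60.4 and 50.2 with DDR1i and 47.9, 52.2, 39.1 and 55.2 with RUNXi. The tested collagen and RUNXi libraries did not overlap, whereas DDR1i spanned the collagen range and the removed library lay within the RUNXi range. Its log2 fold change was -0.47 with RUNXi against collagen (SE 0.15, adjusted p = 0.0744 in edgeR and 0.0332 in DESeq2), -0.12 with DDR1i against collagen (adjusted p = 0.753) and 0.34 for DDR1i against RUNXi (SE 0.14, adjusted p = 0.635), so that a difference between the inhibitors was not shown. For *RFC2*, *RFC3* and *RFC5* the fold changes with either inhibitor against collagen were negative, from -0.34 to -0.07, and none passed. *RFC3* was lowest in replicate 3 of every group, at 55.3, 63.8, 55.0 and 36.7 CPM for control, collagen, DDR1i and RUNXi, the second of these in the removed library.

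**Figure D4:**
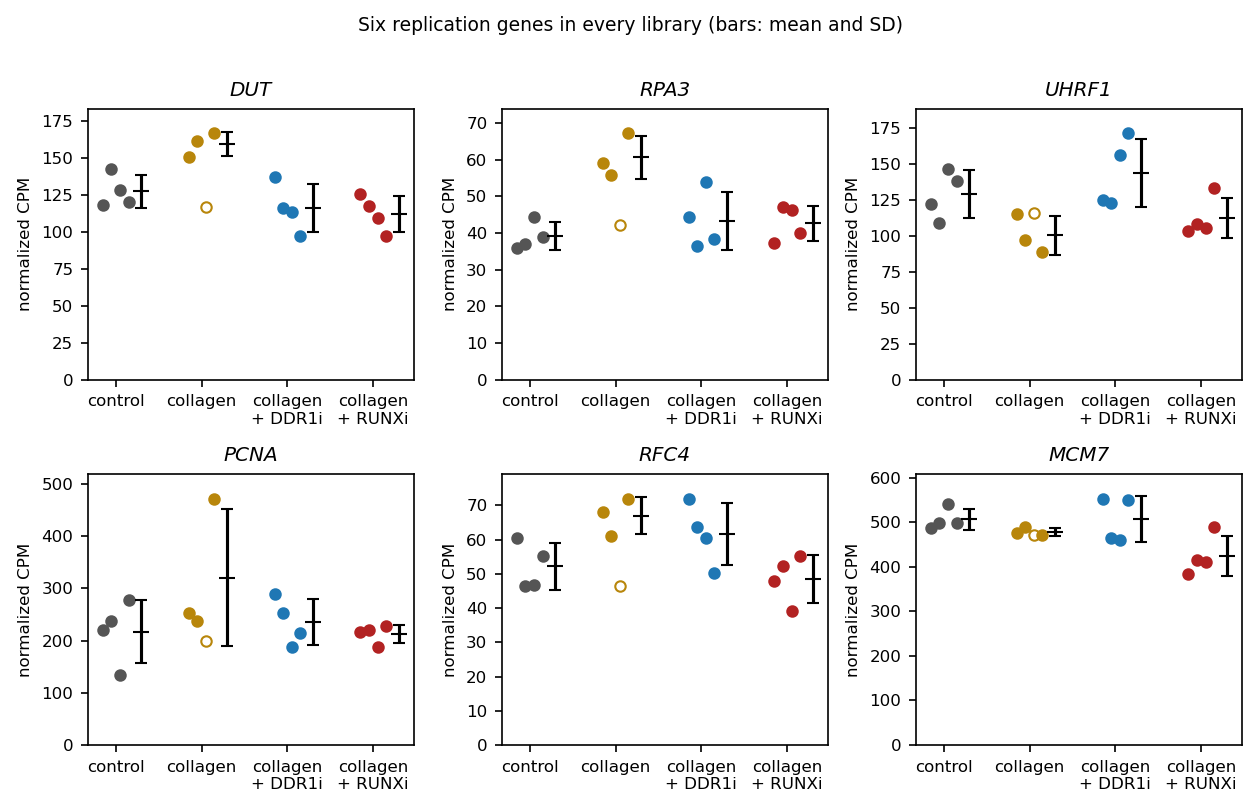
Normalized CPM of *DUT*, *RPA3*, *UHRF1*, *PCNA*, *RFC4* and *MCM7* in each library, 4 points per group (open circle: the removed library, collagen replicate 3), with the mean and SD of the tested libraries beside them. The collagen points of *DUT* (151 to 167) and *RPA3* (55.8 to 67.1) lie above all inhibitor points, and *PCNA* in collagen replicate 4 (472) stands alone.

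The MCM2-7 helicase subunits were the steadiest group. *MCM2* was 208, 179, 199 and 190.0 CPM in control and 160.3, 164 and 155 with collagen, with 202 in the removed library. It was 179, 165, 183 and 186 with DDR1i and 197, 165, 188 and 194 with RUNXi. The 3 collagen libraries were below all others, and the removed library was above all inhibitor libraries. Its log2 fold change was -0.27 with collagen (SE 0.12, adjusted p = 0.346), 0.16 with DDR1i against collagen (adjusted p = 0.511) and 0.21 with RUNXi against collagen (adjusted p = 0.270). *MCM7* was 506 ± 23.9 CPM in control, 478 ± 9.33 with collagen, 507 ± 51.9 with DDR1i and 424 ± 45.2 with RUNXi. RUNXi libraries measured 383, 415, 411 and 488 CPM, and the last of these lay inside the control range of 487 to 541. The log2 fold change of RUNXi against control was -0.25 (SE 0.10, adjusted p = 0.537) and that of DDR1i against RUNXi was 0.26 (SE 0.11, adjusted p = 0.630). For *MCM3*, *MCM4*, *MCM5* and *MCM6*, every fold change in the 6 comparisons was within 0.16 of 0 on the log2 scale.

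The factors that complete the active helicase gave 0 calls in each comparison by edgeR and by DESeq2, and 0 values at an unadjusted p under 0.05. *CDC45*, part of the moving helicase, was 57.3 ± 4.91 CPM in control, 69.6 ± 12.2 with collagen, 59.6 ± 5.85 with DDR1i and 58.2 ± 7.81 with RUNXi. *GINS3* was 31.1 ± 3.16, 31.6 ± 1.42, 29.0 ± 0.965 and 25.5 ± 3.43 CPM in the same order, with a log2 fold change of -0.28 for RUNXi against control (SE 0.16, adjusted p = 0.797). *MCM10*, which joins the helicase to the polymerases, was lower with collagen (53.8 ± 3.30 CPM) than in control (67.1 ± 8.92), a difference that did not pass (log2 fold change -0.31, adjusted p = 0.432). Among licensing factors, *CDC6* was 91.8 ± 8.78 CPM in control, from 89.8 to 112 with collagen, 89.7 ± 6.35 with DDR1i and 81.3 ± 7.20 with RUNXi. Its value for RUNXi against collagen was -0.30 (SE 0.13, adjusted p = 0.180). *ORC1* was 49.9 ± 5.79 CPM in control and 41.6 ± 7.50 with RUNXi (log2 fold change -0.26, adjusted p = 0.799), and *ORC6* was 37.1 ± 6.51 CPM in control and 41.9 ± 1.59 with DDR1i (0.18, adjusted p = 0.998). *CDT1*, the loading factor, had group means between 84.9 and 89.2 CPM.

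Polymerase, primase and fragment joining genes gave 0 calls in each comparison by edgeR and by DESeq2, and 0 values at an unadjusted p under 0.05, although some varied widely between libraries. *PRIM1*, the catalytic primase subunit, was 13.0 CPM in control replicate 3 and 15.1 in RUNXi replicate 3, and from 21.4 to 48.4 CPM in the other libraries. *POLE2*, a subunit of the leading strand polymerase, ranged from 10.5 to 22.3 CPM, with control replicate 3 lowest and collagen replicate 4 highest. *POLD1*, the catalytic subunit of the lagging strand polymerase, had group means between 105 and 123 CPM. *LIG1*, which seals the fragments, was 78.0 ± 1.31 CPM with collagen, 93.4 ± 12.4 in control, 90.9 ± 10.2 with DDR1i and 93.9 ± 10.4 with RUNXi, and the 3 tested collagen libraries (76.7 to 79.4 CPM) lay below all 4 controls. Its value for RUNXi against collagen was 0.26 (adjusted p = 0.250). *FEN1*, which trims the flaps, had group means between 172 and 197 CPM.

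Among the regulators, *UHRF1* came nearest to a call in the direction opposite to *DUT* and *RPA3*. It binds hemimethylated DNA behind the fork and recruits the maintenance methyltransferase. *UHRF1* was 122, 109, 146 and 138 CPM in control and 115, 97.1 and 88.7 with collagen, with 116 in the removed library. It was 125, 123, 156 and 171 with DDR1i and 103, 108, 105 and 133 with RUNXi. All 4 DDR1i libraries were above all collagen libraries, the removed library included, and the RUNXi group overlapped both. Its log2 fold change was 0.52 with DDR1i against collagen (SE 0.14, adjusted p = 0.0501 in edgeR and 0.0139 in DESeq2), 0.16 with RUNXi against collagen (adjusted p = 0.565) and 0.35 for DDR1i against RUNXi (SE 0.13, adjusted p = 0.510). Against control the value with DDR1i was 0.16 (adjusted p = 0.998).

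*E2F1*, the transcription factor at the head of the program, was 36.1, 42.9, 56.0 and 42.2 CPM in control and 66.0, 44.6 and 49.3 with collagen, with 36.8 in the removed library. It was 46.0, 41.0, 53.0 and 70.1 with DDR1i and 54.2, 48.8, 39.3 and 59.7 with RUNXi. The 4 groups overlapped, and its largest log2 fold change was 0.28 with collagen (SE 0.20, adjusted p = 0.601). Cyclin E, which activates CDK2 at the start of S phase, is encoded by *CCNE1* and *CCNE2*. *CCNE2* was 20.8 ± 8.33 CPM in control, 23.4 ± 5.47 with collagen, 23.7 ± 4.60 with DDR1i and 20.1 ± 5.43 with RUNXi, and its log2 fold change was largest for DDR1i against RUNXi (0.24, adjusted p = 0.999 in edgeR). *CCNE1* had group means between 29.8 and 30.9 CPM. The counts of *CCNE2* may hold reads of *INTS8*, whose exons cover 56.9% of its transcript on the opposite strand.

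A pair of libraries set many of the extremes. Collagen replicate 4 held the highest value of the 16 libraries for 14 of the 39 genes, and RUNXi replicate 3 the lowest for 13. The mean log2 level of the 39 genes relative to their means was 0.18 in collagen replicate 4 and -0.20 in RUNXi replicate 3, with all other libraries between -0.07 and 0.11. The removed library held neither the highest nor the lowest value for any of the 39 genes. Its values lay within the range of the other 3 collagen libraries for 14 genes, above it for 10 and below it for 15, and 36 of the 39 genes had a value there that the 8 inhibitor libraries also spanned.

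Within libraries, the deviations of these genes moved with the base composition of their transcripts. GC content ran from 34.6% (*CCNE2*) to 64.8% (*POLD1*). Across the 39 genes, which are not independent replicates, Pearson's r between GC content and the deviation of a gene from its own mean was -0.73 in DDR1i replicate 2 and -0.72 in control replicate 4, and 0.60 in control replicate 3, 0.52 in RUNXi replicate 3 and 0.51 in DDR1i replicate 3. Over all genes tested the same r was -0.31, -0.37, 0.16, 0.08 and 0.10. Replicates of 1 group thus differed in sign. The deviation also moved with transcript length, and there the tested collagen libraries shared a sign. Over the 39 genes r with length was -0.37, -0.40 and -0.60 in collagen replicates 1, 2 and 4 (-0.07, -0.11 and -0.45 over all genes), shorter transcripts being higher, and 0.41 in the removed library. Among the other libraries it was -0.55 in DDR1i replicate 1 and between -0.25 and 0.41 in the rest. Of the genes described above, some with their highest group mean with collagen had short transcripts (*PCNA* 1276 bases, *RFC4* 1365, *RPA3* 2020 and *DUT* 2141). Some with their lowest mean there had longer ones (*LIG1* 3125, *MCM2* 3434 and *UHRF1* 3897), against a median of 2664 over the 39 genes. Length did not sort all genes. *CDC6* (4564 bases), *POLA2* (3544) and *RRM2* (3258) also had their highest group mean with collagen, and the short *TYMS* (1613) did not. The part of GC content and length in the values above was not tested beyond the fits with such trends removed, under which *DUT* with RUNXi against collagen had an adjusted p in edgeR of 0.0209 (GC content) and 0.108 (length).

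**Figure D5:**
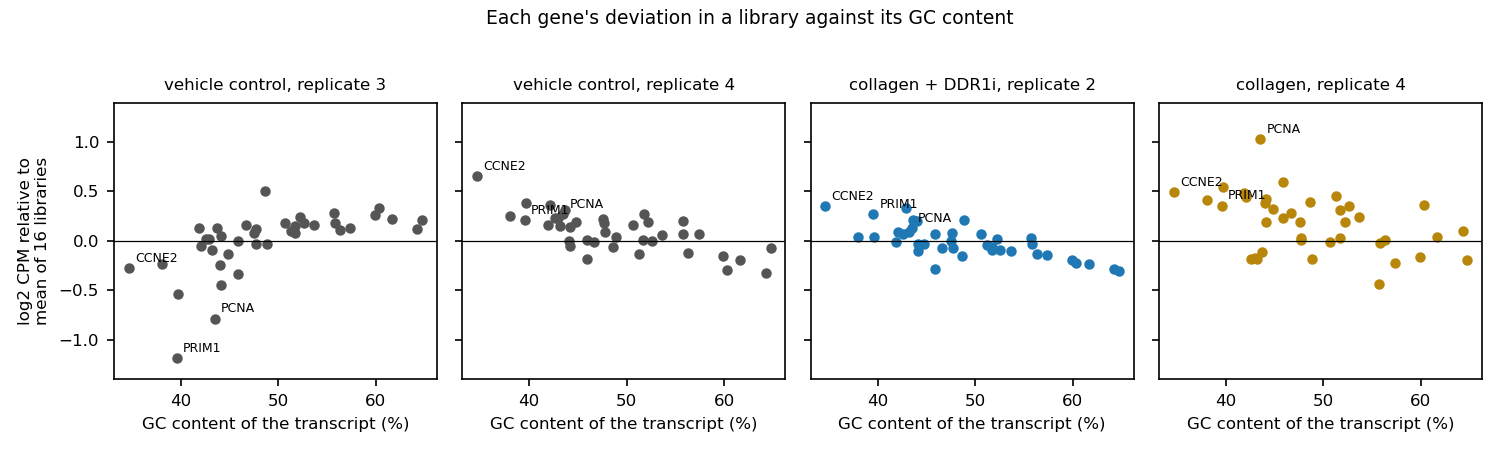
Deviation of each of the 39 genes from its mean over 16 libraries (log2 CPM) against the GC content of its transcript (percent), for control replicates 3 and 4, DDR1i replicate 2 and collagen replicate 4, with 1 point per gene. The slope is upward in control replicate 3 (r = 0.60) and downward in control replicate 4 (r = -0.72), DDR1i replicate 2 (r = -0.73) and collagen replicate 4 (r = -0.44). Over all genes tested, r in the same order was 0.16, -0.37, -0.31 and 0.05.

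Genes that work beside the 39 were counted in 5 lists of other replication factors, other nucleotide enzymes, E2F and RB control, chromatin and other E2F targets, and mitosis, with 115 genes tested. With collagen against control, 0 of the 115 passed edgeR's adjusted threshold and 20 (17.4%) had an unadjusted p under 0.05, against 13.4% of all genes. DESeq2 called 6 (5.22%, against 5.76%). With DDR1i against collagen, 5 passed (4.35%, against 2.47% of all genes) and 32 had an unadjusted p under 0.05 (27.8%, against 18.0%). DESeq2 called 15 (13.0%, against 10.0%). With RUNXi against collagen, 7 passed (6.09%, against 4.05%) and 38 had an unadjusted p under 0.05 (33.0%, against 21.1%). DESeq2 called 15 (13.0%, against 11.8%). With either inhibitor against collagen these edgeR shares, counted in both directions together, were above those of all genes and those of the 39 were below them. Neither difference was tested. Against control, 0 passed in edgeR and 0 by DESeq2 with either inhibitor. At an unadjusted p under 0.05, 3 passed with DDR1i (2.61%, against 5.13% of all genes) and 10 with RUNXi (8.7%, against 6.81%). Of 33 other replication factors, 1 passed with DDR1i against collagen, the licensing inhibitor *GMNN* (102 ± 26.2 CPM with collagen, 68.0 ± 9.74 with DDR1i, adjusted p = 0.0392), which fell, and 1 with RUNXi, the leading strand polymerase *POLE* (76.0 ± 6.17 and 116 ± 14.4 CPM, adjusted p = 0.0184), which rose. Of 15 other nucleotide enzymes, *CAD*, which starts pyrimidine synthesis, rose with DDR1i (log2 fold change 0.55, adjusted p = 0.0224) and with RUNXi (0.50, adjusted p = 0.0318). The nucleoside diphosphate kinase *NME1* fell with DDR1i (-0.60, adjusted p = 0.0431) and with RUNXi (-0.68, adjusted p = 0.0206). Of 28 tested genes of E2F, RB and G1 control, only *CCND2* passed, lower with RUNXi (-0.63, adjusted p = 0.0209), and of 23 chromatin and other E2F target genes only *DNMT1*, the maintenance methyltransferase, passed, higher with DDR1i (0.55, adjusted p = 0.0170) and with RUNXi (0.46, adjusted p = 0.0349).

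Of 16 mitotic genes, *MKI67*, the proliferation marker Ki-67, was 478 ± 67.8 CPM in control, 277 ± 61.0 with collagen (214 to 336, with 508 in the removed library), 469.9 ± 59.8 with DDR1i and 394 ± 44.2 with RUNXi. It rose with DDR1i against collagen (log2 fold change 0.76, adjusted p = 0.00621) and with RUNXi against collagen (0.50, adjusted p = 0.0437), while *AURKB*, a mitotic kinase, fell with RUNXi (-0.52, adjusted p = 0.0408). *MKI67* did not stand for its list, whose median log2 fold change against collagen was -0.07 with DDR1i and -0.19 with RUNXi. At an unadjusted p under 0.05, 2 of the 16 were higher and 1 lower with DDR1i, and 2 higher and 6 lower with RUNXi. Of all 13548 genes, 1339 were higher and 1103 lower with DDR1i, and 1469 higher and 1384 lower with RUNXi. Against control, 0 of the 16 were higher and 5 lower with RUNXi, and 454 higher and 446 lower of all 13213 genes. Lower values with RUNXi were thus a larger share of the mitotic genes than of all genes, a difference that was not tested. Between the inhibitors, 0 of the 115 genes passed in edgeR and DESeq2 called 0. There 7 had an unadjusted p under 0.05 (6.09%, against 6.19% of all genes). Each of these calls against collagen was lost when the removed library was included, with adjusted p-values in edgeR between 0.133 and 0.649. The fold changes moved unequally. For RUNXi against collagen, *AURKB* went from -0.52 to -0.51 and *NME1* from -0.68 to -0.56, whereas *MKI67* went from 0.50 to 0.22 and *CAD* from 0.50 to 0.27. With the same library included, 60 genes in all were called with RUNXi against collagen, in place of 549. Among the calls of these lists against collagen, the genes that rose had long transcripts (*MKI67* 12716 bases, *POLE* 7823, *CAD* 7286 and *DNMT1* 5274). Those that fell had short ones (*NME1* 890 bases, *AURKB* 1243 and *GMNN* 1263), except *CCND2* (6493). The part of length in these calls was not tested.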

How the data were processed

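The authors aligned 150-bp paired-end reads to GRCh37 (hg19) with STAR, per the labels and the study's methods, and deposited raw counts per gene in each of 16 libraries without normalization. The counting tool, the gene annotation and the use of strand are not given in the sources used here, so counts of overlapping genes are uncertain. Of the 39 genes, 6 share exon bases with another gene of the table, *CCNE2* and *TYMS* by over 20% of their transcript. Libraries were assigned to groups from their titles, and doses and times were taken from the labels and methods.

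The counts went into edgeR 4.0.16 under R 4.3.3, with TMM scaling, filterByExpr, a robust quasi-likelihood fit and Benjamini-Hochberg adjusted p-values (threshold 0.05). Collagen against control used 7 libraries, the inhibitors against collagen and each other 11, and the inhibitors against control 12. Collagen replicate 3 was left out because the study removed it. Biological coefficients of variation were 0.353, 0.287 and 0.310. No pair of replicates agreed within sampling noise (chi-square over its degrees of freedom at least 18.5). DESeq2 1.42.0 was an alternative, and other alternatives removed trends with transcript length or GC content by splines with 4 degrees of freedom (limma 3.58.1), dropped the filter, changed the normalization, blocked on the replicate number, pooled the groups, included collagen replicate 3 or left out each library in turn. The trend with GC content, and fits that joined 2 such choices, were added after seeing the data.

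Transcript lengths and GC content came from canonical transcripts of GENCODE lifted to GRCh37 (21958 names matched), with 1283 entries matched by an older symbol. Promoters came from RefSeq (GRCh38.p14). Scripts were tested on simulated data. Plots used matplotlib 3.10.9 under Python 3.11.15, with tables read by pandas 2.3.3. The 39 genes and the other lists were chosen with earlier results of these data known. Fold changes with adjusted p-values are given for most, not all, of the 4 members with the smallest p-values in each comparison, since fewer passed. They are also given for *PCNA*, *MCM2*, *CDC6*, *RRM2*, *E2F1* and *CCNE2* in some of the comparisons.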

Additional observations from a re-analysis of the deposited data

Results flagged for a closer look

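In each group of 4 libraries, the gap between the highest or the lowest library and its nearest neighbour was compared with the whole range of the group (Dixon's test at 95%) for the 39 genes, their mean level and the total count. Of 164 groups of values, 9 had a library that stood apart, and chance alone gives about 8.2. Control replicate 4 was high for *RRM1* (382 CPM), *RRM2* (496 CPM) and *CCNE2* (33.2 CPM), and control replicate 2 was low for *ORC1* (41.2 CPM). Collagen replicate 4 was high for *CCNE2* (29.6 CPM), and collagen replicate 1 had the lowest total count of its group (17570707). DDR1i replicate 1 was high for *RFC2* (126 CPM), RUNXi replicate 1 was high for *GINS2* (73.9 CPM) and RUNXi replicate 3 was low for *PRIM1* (15.1 CPM).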

How the results depend on the processing

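Of 143 counts of replication genes called under an alternative, 113 equalled the reported count, which was 0 or 1 in every comparison. An equal count of 0 says little where no gene was near the threshold. For collagen against control (0), 1 gene was called with all 4 groups in 1 fit and 1 with DESeq2 (*RPA3* each time), and 5 at an unadjusted p. For DDR1i against collagen (0), 3 were called with DESeq2, 3 with no filter on low counts, 1 with DESeq2 size factors, 2 with the GC content trend removed and 4 at an unadjusted p, and 0 to 2 when 1 library was left out. *UHRF1* was gained without collagen replicate 1, DDR1i replicate 1, DDR1i replicate 2 or RUNXi replicate 4, and *DUT* without DDR1i replicate 1. For RUNXi against collagen (1), 3 were called with DESeq2, 3 with the GC content trend removed, 4 with no filter and 7 at an unadjusted p. There 0 were called with the length trend removed and 0 in each of 5 fits that included collagen replicate 3, and 0 to 2 when 1 library was left out. *DUT* was lost without collagen replicate 2 (adjusted p = 0.0511), collagen replicate 4 (0.0894), RUNXi replicate 3 (0.0682) or RUNXi replicate 4 (0.0783), and over all 24 alternatives its adjusted p ranged from 0.00427 to 0.459. At an unadjusted p, 3 genes were called for DDR1i against RUNXi and 1 for RUNXi against control. The fold change of *PCNA* with DDR1i against collagen turned to 0.046 with collagen replicate 4 left out and replicate 3 included. The median with collagen against control was -0.13 with the length trend removed, and for DDR1i against control both trend removals shifted the median of all genes to -0.11. The cause of these changes was not tested.

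The r of deviations between libraries with the same replicate number was from -0.09 to 0.28 over all genes and over 0.1 for 7 of 24 pairs, among them all 6 of replicate 4. The main fits did not take the numbers as pairs. Over the 39 genes the median r was 0.23 for the same number (0.28 to 0.66 for replicate 3) and -0.10 for different numbers, a hint of shared variation from the data and not from the design. With the replicate block, 3 genes were called with DDR1i and 2 with RUNXi against collagen, in place of 0 and 1. In the fit of all 16 libraries with the block, 0 were called. Of 48 pairings of a library with another group, 33 (68.8%) were closest to the same number, with 4 libraries per group to choose from. The main counts thus take no account of variation shared by number, and whether the numbers mark batches was not tested.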
